A study of Mus musculus with 2 samples.

Results

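The genes of the hepatic extracellular matrix and of the cells that produce it were examined in livers of FLS mice, an inbred strain with non-alcoholic steatohepatitis (NASH), and of DS mice, a related inbred strain whose livers showed simple steatosis. The 58 genes were listed by name for their roles, by a rule that used no measured value but with earlier results of these data known, as collagens, matrix proteins, enzymes and inhibitors, components of transforming growth factor (TGF)-beta signalling and markers of hepatic stellate cells. Of these, 55 were read from 126 probe sets, out of 18194 genes named on the array. Fbn1, Spp1 and Loxl2 were not analysed here, since the annotation in use gave no probe set of them a single gene symbol.

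The data consisted of 2 Affymetrix mouse expression arrays. On each of them the liver RNA of 3 mice was hybridized as a pool, FLS on 1 array and DS on the other. All mice were 19 weeks old and were fed a standard pellet diet. They were killed with pentobarbital and their livers were perfused with saline. No other agent and no engineered allele was described for either strain. The strains were founded from different lines of an outbred ddN colony, so that they differ in their whole genetic background as well as in liver pathology. With 1 pool per strain, strain, pathology and array cannot be told apart, no spread between mice was recorded, and no test of any difference was possible.

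In fibrotic liver, stellate cells leave their vitamin A-storing state, take on features of myofibroblasts and secrete fibrillar collagens, with TGF-beta and platelet-derived growth factor (PDGF) among the signals that drive them. The collagens are hydroxylated on proline inside the cell, cross-linked by lysyl oxidases outside it, and degraded by matrix metalloproteinases (MMPs), whose activity is held back by tissue inhibitors (TIMPs). In whole liver RNA, fewer cells of a type and less RNA per cell cannot be told apart.

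Signal intensities are given on their linear scale, and a fold change is the FLS/DS ratio of the brightest probe set of a gene, by mean signal. Ratios of at least 1.5-fold and of at least 2-fold in either direction were counted. The median signal over the array was 120.3 in FLS livers against 125.2 in DS livers. As the deposited values carry no detection call, a signal at or below the median of its own array was taken as not above background. Both signals exceeded these medians for 46 genes, 1 signal did for 4 genes (Col1a1, Loxl1, Mmp2 and Mmp12), and neither did for Thbs1, Lama4, Lox, Plod2 and Mmp13, for which no fold change is given. Hepatocyte markers were alike in both pools, with ratios from 0.867 to 1.12 over 10 genes and albumin (Alb) at 32018 in FLS livers against 30942 in DS livers.

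Of the 55 genes, 13 had a measured ratio at least 1.5-fold higher in the FLS pool (23.6%), against 3.02% of all genes on the array, a comparison that describes genes listed with earlier results known. At least 1.5-fold lower were 2 genes (3.64%), Col27a1 and P4ha1, against 2.13% of all genes. At the 2-fold limit, 7 genes were higher (Col3a1, Col1a2, Lum, Mmp12, Mmp14, Vim and Pdgfrb) and Col27a1 was lower, where the whole array had 0.989% higher and 0.709% lower. The median log2 ratio was 0.25 over the 55 genes and -0.04 over all genes. The counts were repeated for genes with a mean signal above 200. Of the 36 such genes here, 10 were at least 1.5-fold higher (27.8%) and 2 lower (5.56%), against 5.14% and 3.36% of 8778 genes of the array, and 6 were at least 2-fold higher (16.7%) and 1 lower (2.78%), against 1.83% and 1.26%. Of the 13 genes, Loxl1 and Mmp12 had a DS signal below the array median, and 11 remained at 1.5-fold when such signals were set to that median, which leaves Mmp12 at 1.39-fold. Closest to the limit among genes with both signals above the medians, Col6a3 lay inside at 1.53, while Hand2 at 1.48 and Col4a2 at 1.44 lay outside. The measured ratio of Col1a1, 1.49, has no place in this order, as its DS signal was not above background.

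**Figure D1:**
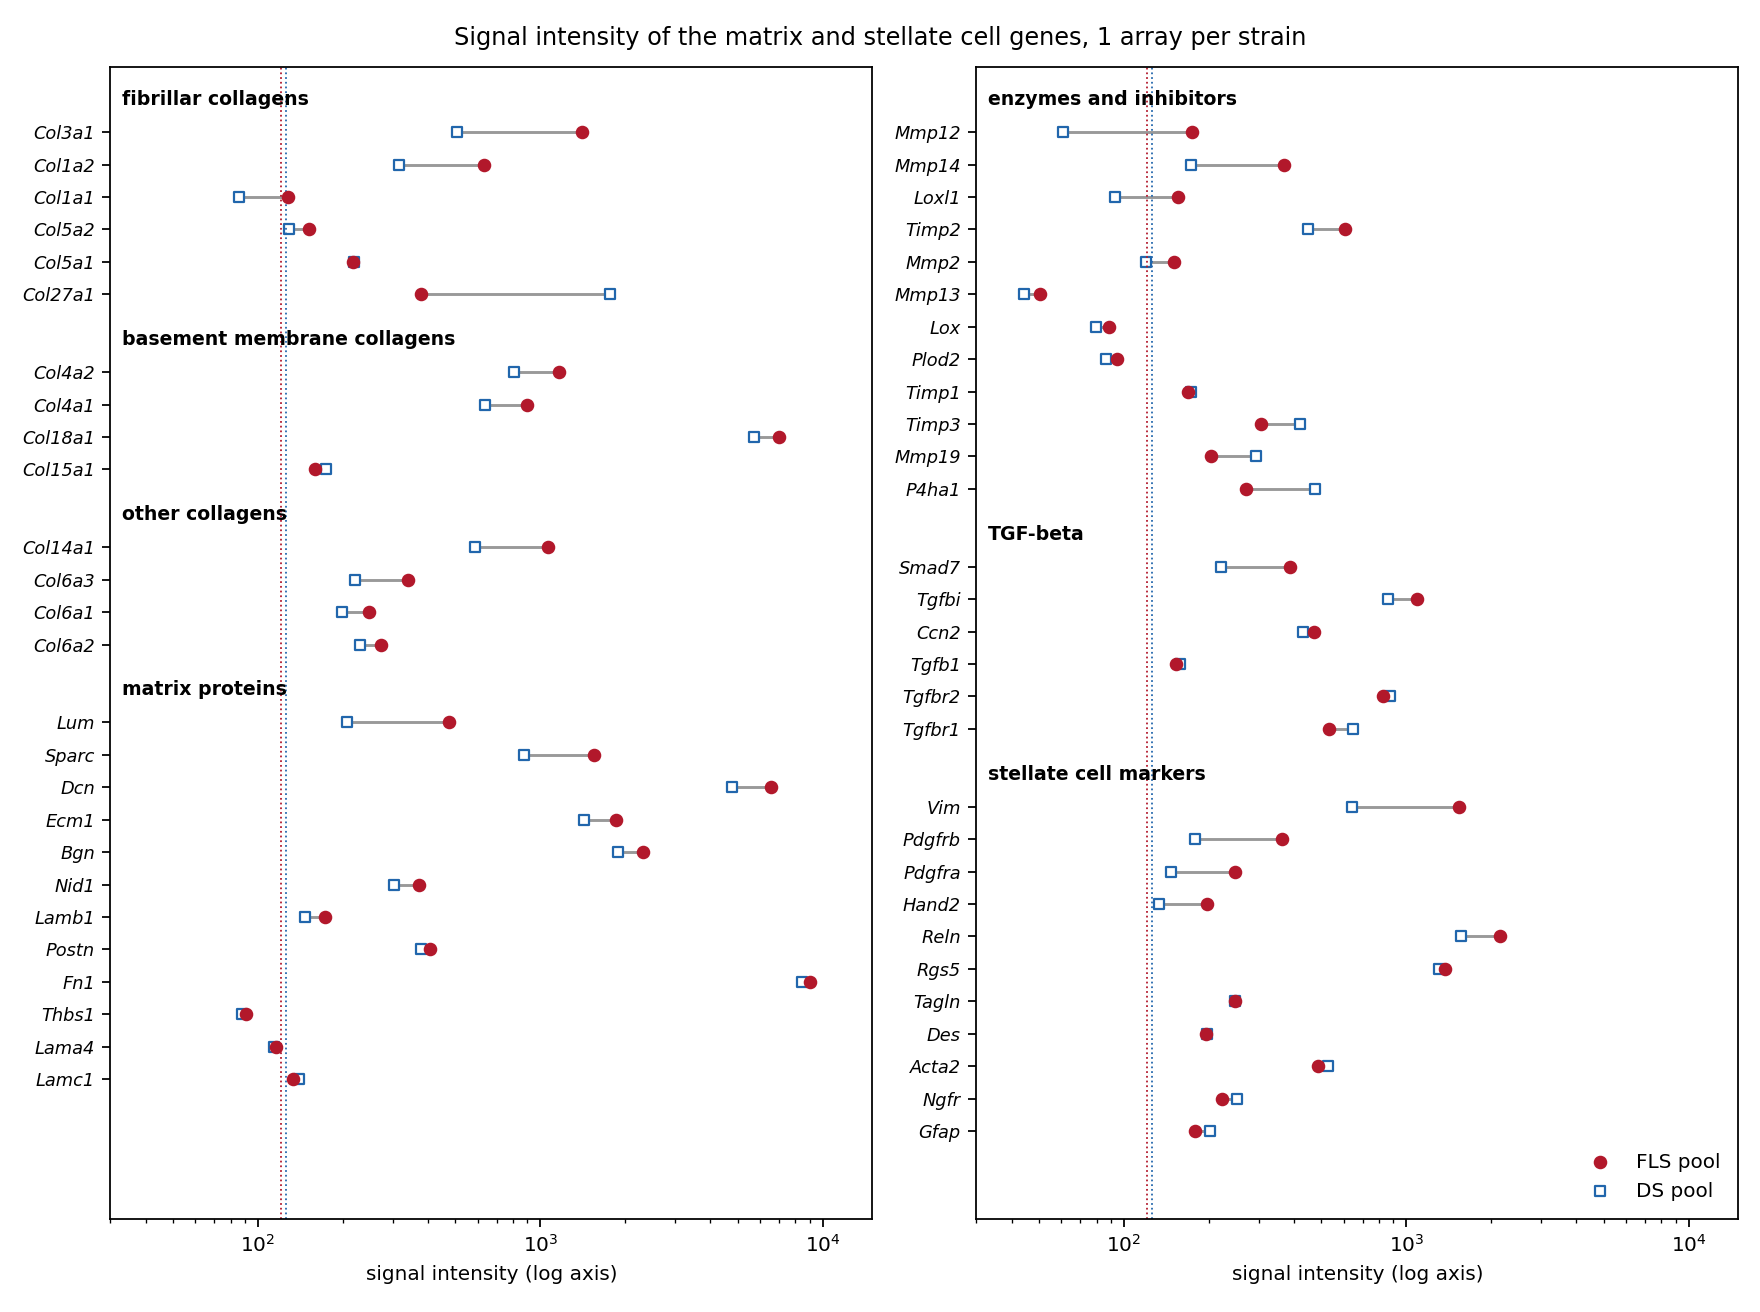
Signal intensity (log axis) of each of the 55 genes in the FLS pool (filled circles) and the DS pool (open squares), 1 array per strain, grouped by role and ordered by fold change within each group; dotted lines mark the median signal of each array. The FLS signals of Col3a1, Col1a2, Lum, Mmp14, Vim and Pdgfrb lie at least 2-fold to the right of their DS signals, whereas that of Col27a1 lies to the left, at 378 in the FLS pool against 1770 in the DS pool.

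Fibrillar collagens form the banded fibres of scar tissue. Col3a1, which encodes the chain of type III collagen, had a signal of 1409 in FLS livers against 507.4 in DS livers, a fold change of 2.78. A dim second probe set had 120.7 in FLS livers against 68.7 in DS livers, the FLS signal lying just above its array median. Col1a2, 1 of the genes of type I collagen, had 632.6 in FLS livers against 315.6 in DS livers, which is 2.00-fold higher, and a further probe set with a DS signal below the array median had 175.4 in FLS livers against 84.7 in DS livers. Its partner chain Col1a1 had low signals, with 128.0 in FLS livers against 85.7 in DS livers. As its DS signal lay below the array median, the Col1a1 difference is bounded only as at least 1.02-fold.

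The genes of type V collagen, a minor partner in these fibres, had ratios near 1. Col5a1 had 216.7 in FLS livers against 218.5 in DS livers, and its other probe sets gave 0.900 and, with a DS signal below the array median, at least 1.53-fold. Col5a2 had 151.3 in FLS livers against 128.7 in DS livers, a ratio of 1.18.

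Col27a1, the gene of a fibrillar collagen best known from cartilage, differed most of all 55 genes and in the opposite direction. Its signal was 378.2 in FLS livers against 1770 in DS livers, 4.68-fold lower in FLS livers. The second probe set, with 214.8 in FLS livers against 1007 in DS livers, gave an almost identical ratio of 0.213. Fibrillar collagens were thus split, with 2 of 6 at least 1.5-fold higher and 1 lower, around a median log2 ratio of 0.41, or 0.13 with Col1a1 at its bound.

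Type IV collagen forms the network of basement membranes. Its main chains had like ratios, with Col4a1 at 895 in FLS livers against 634.3 in DS livers (ratio 1.41) and Col4a2 at 1163 in FLS livers against 807.3 in DS livers (ratio 1.44). Col18a1, whose product is the precursor of endostatin, had 7017 in FLS livers against 5705.5 in DS livers, a ratio of 1.23, and Col15a1 had 159.4 in FLS livers against 174.4 in DS livers, a ratio of 0.914. None of these 4 genes reached 1.5-fold, and their median log2 ratio was 0.40.

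Col14a1, a collagen that decorates the surface of fibrils, had 1068 in FLS livers against 586.9 in DS livers, a fold change of 1.82, with 1.44 on a second probe set. The genes of type VI collagen, which forms beaded filaments around cells, were all higher in the FLS pool. Col6a3 had 339.1 in FLS livers against 221.4 in DS livers (ratio 1.53), whereas Col6a1 had a ratio of 1.24 and Col6a2 of 1.19. Over these 4 genes the median log2 ratio was 0.46.

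The 28 other collagen genes on the array had ratios nearer to 1. None was at least 1.5-fold higher or lower, their ratios ran from 0.694 (Col2a1) to 1.11 (Col8a2), 24 of them below 1, and their median log2 ratio was -0.13. For 14 of them neither signal exceeded the array median. The 3 with a signal above 200 and the largest differences were Col20a1, at 171.1 in FLS livers against 243.8 in DS livers, Col22a1, at 164.6 in FLS livers against 201.5 in DS livers, and Col9a3, at 165.3 in FLS livers against 202.8 in DS livers.

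**Figure D2:**
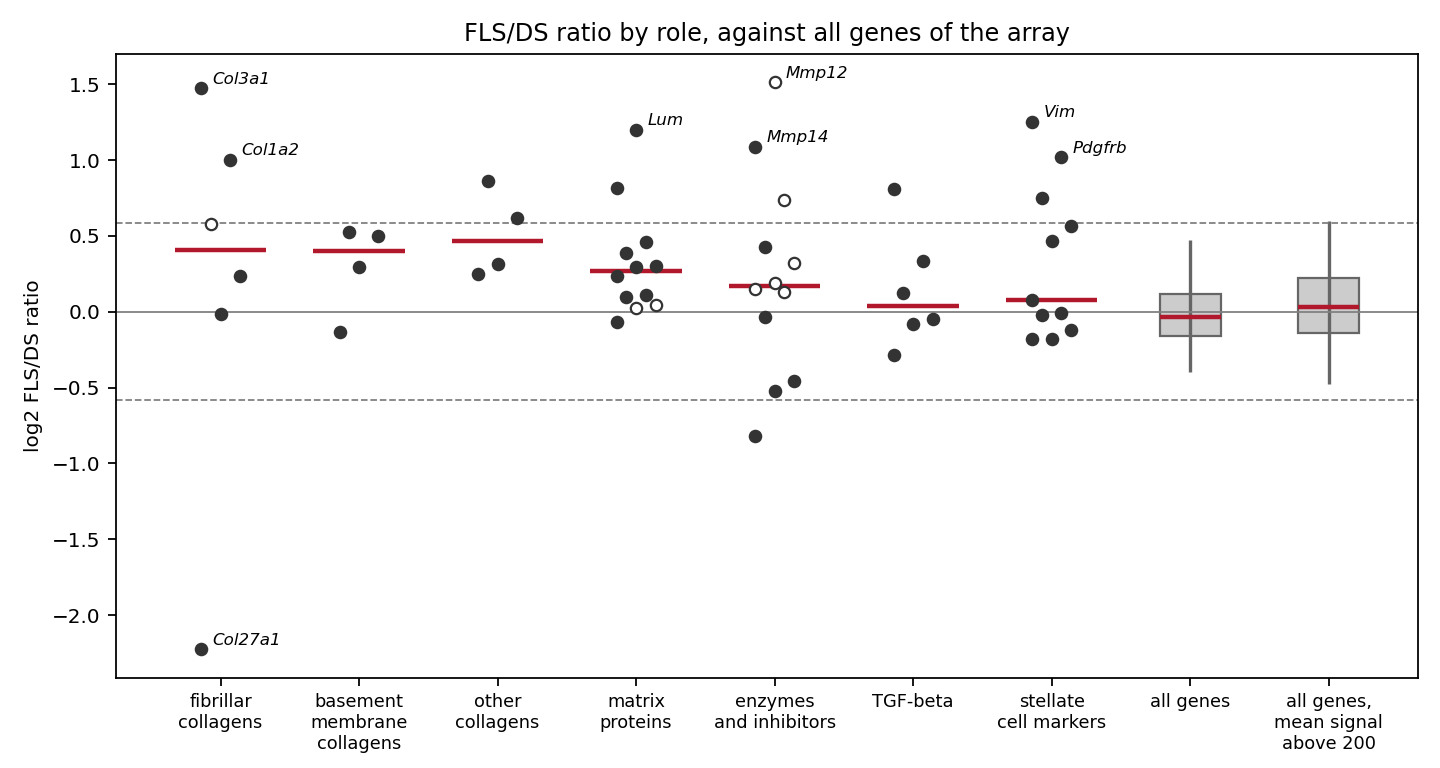
Log2 FLS/DS ratio of each gene by role, with filled points where both signals exceeded the array medians, open points where 1 or neither did, and a red bar at the median; the boxes show the 25th to 75th percentiles of all genes and of all genes with a mean signal above 200, the whiskers the 5th to 95th, and the dashed lines a 1.5-fold difference. The medians of the collagen groups lie between 0.40 and 0.46 and those of TGF-beta components and stellate cell markers at 0.04 and 0.08, while the upper whisker of all genes ends at 0.47.

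Promoters of some of the genes with the largest differences are shown so that their sequence features can be compared. Each run is the 250 bases before the transcription start, from the RefSeq annotation of the C57BL/6J genome (GRCm38.p6). The genes shown have a single annotated start window and were at least 2-fold higher or at least 1.5-fold lower in FLS livers. Position in the genome also limited which genes are shown, so the set is not complete. Lum, Mmp12 and Pdgfrb also had measured ratios at least 2-fold higher, and their promoters are not shown. Sequences of the FLS and DS strains themselves were not used here. Capitals mark, on either strand, the CCAAT box (CCAAT), the GC box (GGGCGG), the TATA box (TATAAA), the AP-1 site (TGANTCA), the CAGACA element bound by Smad3 (CAGACA) and the core of the hypoxia response element (ACGTG).
Col1a2 (chr6:4505368-4505617, plus strand): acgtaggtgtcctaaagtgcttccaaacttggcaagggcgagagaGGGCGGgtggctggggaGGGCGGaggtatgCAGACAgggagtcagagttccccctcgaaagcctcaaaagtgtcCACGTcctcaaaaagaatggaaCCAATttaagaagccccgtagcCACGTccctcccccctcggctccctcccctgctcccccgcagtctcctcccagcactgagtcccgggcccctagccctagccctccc
Col3a1 (chr1:45311288-45311537, plus strand): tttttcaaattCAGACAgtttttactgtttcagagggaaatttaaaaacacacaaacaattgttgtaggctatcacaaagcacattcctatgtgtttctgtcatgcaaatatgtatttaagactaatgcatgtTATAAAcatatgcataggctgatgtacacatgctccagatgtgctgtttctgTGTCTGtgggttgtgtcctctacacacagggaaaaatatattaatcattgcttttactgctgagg
Mmp14 (chr14:54431348-54431597, plus strand): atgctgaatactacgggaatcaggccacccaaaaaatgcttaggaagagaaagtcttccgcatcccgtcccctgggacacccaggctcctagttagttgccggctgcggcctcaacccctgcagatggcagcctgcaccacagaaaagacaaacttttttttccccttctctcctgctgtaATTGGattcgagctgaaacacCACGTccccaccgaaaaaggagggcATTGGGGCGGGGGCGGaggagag
Vim (chr2:13574061-13574310, plus strand): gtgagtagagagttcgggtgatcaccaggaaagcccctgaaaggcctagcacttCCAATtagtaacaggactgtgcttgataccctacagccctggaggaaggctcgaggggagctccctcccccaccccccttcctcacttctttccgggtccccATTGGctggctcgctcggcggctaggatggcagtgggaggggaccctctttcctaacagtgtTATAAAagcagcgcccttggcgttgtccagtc
Col27a1 (chr4:63215162-63215411, plus strand): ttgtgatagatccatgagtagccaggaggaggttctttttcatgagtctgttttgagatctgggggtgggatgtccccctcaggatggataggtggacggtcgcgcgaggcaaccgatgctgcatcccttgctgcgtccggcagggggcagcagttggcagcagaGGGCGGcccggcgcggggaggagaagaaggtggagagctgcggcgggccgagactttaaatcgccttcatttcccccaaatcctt
P4ha1 (chr10:59323046-59323295, plus strand): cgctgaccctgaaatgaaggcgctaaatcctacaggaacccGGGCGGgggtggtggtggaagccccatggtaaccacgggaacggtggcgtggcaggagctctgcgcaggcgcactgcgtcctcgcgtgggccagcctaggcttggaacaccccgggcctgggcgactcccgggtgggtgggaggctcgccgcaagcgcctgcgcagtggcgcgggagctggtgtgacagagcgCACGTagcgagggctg

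Col1a2 held a pair of GC boxes, beginning 205 and 188 bases before the start, a CAGACA element at 175, a CCAAT box at 109 and ACGTG on the reverse strand at 131 and 87. Col3a1 held CAGACA at 239 and, on the reverse strand, at 65, with a TATA box between them at 117. Neither Mmp14 nor Vim held CAGACA. Mmp14 carried CCAAT boxes on the reverse strand at 69 and 23 bases, the nearer of which overlaps a GC box by 1 base, a further GC box at 13 and ACGTG on the reverse strand at 48. Vim carried CCAAT boxes at 196 and, on the reverse strand, at 94, and a TATA box at 32. Col27a1 held a single match, a GC box at 85, while P4ha1 held a GC box at 209 and ACGTG on the reverse strand at 16. In P4ha2, a further prolyl 4-hydroxylase gene with a lower FLS signal, ACGTG was found at 78 bases, beside GC boxes at 126 and 18.

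Promoter windows were found for 37 of the 55 genes, 42 windows in all. CAGACA occurred in 19.0% of them and in 17.1% of 32851 windows of all genes, ACGTG in 19.0% against 16.6%, CCAAT in 33.3% against 33.8%, TATAAA in 11.9% against 12.4% and TGANTCA in 9.52% against 6.75%. GGGCGG was found in 54.8% of the windows of these genes and in 32.7% of all windows, but in 2 of the 9 windows of the genes that were at least 1.5-fold higher. These are matches of letters and not binding sites.

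Some of the genes lie next to each other, and their ratios need not match. Col3a1 (2.78) and Col5a2 (1.18) are adjacent on chromosome 1, Dcn (1.37) and Lum (2.30) on chromosome 10, and Mmp13, with both signals below the medians, and Mmp12 on chromosome 9. By contrast Col4a1 (1.41) and Col4a2 (1.44), whose annotated starts lie 21 bases apart on opposite strands of chromosome 8, and Col6a1 (1.24) and Col6a2 (1.19) on chromosome 10 had like ratios.

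Among the noncollagenous matrix genes, 9 of the 10 with a signal above background had a ratio above 1, and the median log2 ratio over all 12 was 0.27. Lum, the gene of lumican, a small proteoglycan that spaces collagen fibrils, had 475.4 in FLS livers against 206.9 in DS livers, a fold change of 2.30. Sparc, which encodes a collagen-binding glycoprotein made by stellate and endothelial cells, had 1544 in FLS livers against 877.9 in DS livers, a fold change of 1.76. A second probe set of Sparc gave 1.65, and another with lower signals, 151.3 in FLS livers against 177.3 in DS livers, gave 0.853. These were the 2 of 12 genes that reached 1.5-fold.

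Of the small proteoglycans related to lumican, decorin and biglycan differed less. Decorin (Dcn), which binds TGF-beta, had 6549.6 in FLS livers against 4770 in DS livers (ratio 1.37), although a dim second probe set gave 0.894. Biglycan (Bgn) had 2316 in FLS livers against 1878 in DS livers, and its 3 probe sets agreed at 1.23 to 1.26. Ecm1, which keeps latent TGF-beta inactive in mouse liver, had 1858 in FLS livers against 1423 in DS livers, a ratio of 1.31.

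Fibronectin (Fn1), which hepatocytes secrete in large amounts, had 9011 in FLS livers against 8423 in DS livers, a ratio of 1.07. The matricellular gene Postn had a ratio of 1.08, the basement membrane linker Nid1 of 1.23, and the laminin chains Lamb1 and Lamc1 of 1.18 and 0.955. Over 40 further matrix glycoproteins and proteoglycans the median log2 ratio was 0.01, and for 18 of them neither signal exceeded the array median. On signals above background, 1 of the other 22 was at least 1.5-fold higher and none lower. It was Fbln5, an elastic fibre protein, at 289.5 in FLS livers against 158.3 in DS livers, while its second probe set lay below the medians. Next among genes of this list with a signal above 200 were Omd (ratio 0.744) and Emilin1 (ratio 1.33). Omd had 326.6 in FLS livers against 439.2 in DS livers. Fmod, a collagen-binding proteoglycan, had 139.0 in FLS livers against 85.1 in DS livers, a DS signal below the array median that bounds the difference as at least 1.11-fold.

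Of the 12 enzymes and inhibitors, Mmp14 was at least 1.5-fold higher and P4ha1 lower on signals above background. Mmp12 and Loxl1 passed that limit as measured, but their bounds of 1.39 and 1.24 do not reach it. The median log2 ratio was 0.17, and -0.05 with signals below the array median set to it. Mmp14, a membrane-bound metalloproteinase that cleaves fibrillar collagen and activates Mmp2, had 367.9 in FLS livers against 173.0 in DS livers, a fold change of 2.13. A further probe set gave 1.05, and another, with a DS signal below the array median, at least 1.17-fold. Mmp12, the elastase of macrophages, had 173.6 in FLS livers against 60.9 in DS livers, which bounds the difference as at least 1.39-fold. Mmp2, a gelatinase of stellate cells, had 150.0 in FLS livers against 120.0 in DS livers (at least 1.20-fold), and Mmp19 had 203.2 in FLS livers against 292.5 in DS livers, a ratio of 0.695.

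The inhibitors did not follow a common direction. Timp1, a gene induced in activated stellate cells, had 168.5 in FLS livers against 172.6 in DS livers, a ratio of 0.976. Timp2 had 604.1 in FLS livers against 448.5 in DS livers (ratio 1.35), with 0.953 to 1.35 over the 4 of its 6 probe sets above the medians, and Timp3 had 305.9 in FLS livers against 419.2 in DS livers (ratio 0.730). Of 24 other matrix proteases and inhibitors, 10 had neither signal above the array median. None of the 24 reached 1.5-fold in either direction, and their median log2 ratio was -0.11. The largest difference among those with a signal above 200 was that of Adamts9, at 210.0 in FLS livers against 141.0 in DS livers, followed by Mmp7 (ratio 0.781) and Adam17 (ratio 1.28).

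P4ha1, a catalytic subunit of the prolyl 4-hydroxylase that stabilises the collagen triple helix, had 269.6 in FLS livers against 474.5 in DS livers, a ratio of 0.568. Its second probe set had 85.2 in the FLS pool, below the array median, and 152.9 in the DS pool. P4ha2, which encodes the alternative catalytic subunit, had 121.0 in FLS livers, just above the array median, against 262.4 in DS livers, a ratio of 0.461. It was the only 1 of 20 further genes of collagen maturation and secretion beyond 1.5-fold, and their median log2 ratio was -0.08. The shared beta subunit P4hb had a ratio of 1.05 and the collagen chaperone Serpinh1 of 1.04, while Colgalt1, which attaches galactose to collagen, had 0.765 and the procollagen processing enhancer Pcolce2 had 0.776. The cross-linking enzyme gene Loxl1 had 155.2 in FLS livers against 92.9 in DS livers, a DS signal below the array median that bounds the difference as at least 1.24-fold, and its second probe set had both signals below the medians.

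Components of TGF-beta signalling were close to equality, with a median log2 ratio of 0.04. The ligand gene Tgfb1 had 152.6 in FLS livers against 157.9 in DS livers, a ratio of 0.967. The receptor genes Tgfbr1, at 531.9 in FLS livers against 646.8 in DS livers, and Tgfbr2, at 828.5 in FLS livers against 875.0 in DS livers, had ratios of 0.822 and 0.947. On a second probe set Tgfbr1 had 89.7 in FLS livers, below the array median, against 137.4 in DS livers, a ratio of at most 0.875. Of the target genes, Tgfbi had a ratio of 1.26 and Ccn2, listed as Ctgf and a classical fibrogenic target, of 1.09.

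Smad7, an inhibitory Smad that TGF-beta itself induces, was the 1 of 6 components at least 1.5-fold higher, with 387.6 in FLS livers against 221.1 in DS livers (fold change 1.75) and 1.43 on its second probe set. Of 28 further genes of the pathway and of the related bone morphogenetic protein (BMP) branch, 3 were at least 1.5-fold higher and none lower, with a median log2 ratio of 0.18. Id1, a target of BMP signalling, had 1408 in FLS livers against 246.6 in DS livers, a fold change of 5.71 on a single probe set. Smad3, which carries the TGF-beta signal to the nucleus, had 441.4 in FLS livers against 189.4 in DS livers (fold change 2.33), but its other probe sets lay below both array medians. Smad1, a carrier of the BMP signal, had 610.1 in FLS livers against 385.3 in DS livers, a fold change of 1.58, with 1.75 on another probe set. A further, dimmer probe set of Smad1 had 130.8 in FLS livers against 124.1 in DS livers. That DS signal lay below the array median, which bounds the difference only as at least 1.045-fold.

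Among the 11 stellate cell markers, Vim, Pdgfrb and Pdgfra were at least 1.5-fold higher, and the other 8 lay within 1.5-fold. Vim, the gene of the intermediate filament vimentin, had 1532 in FLS livers against 642.1 in DS livers, a fold change of 2.39, with 1.79 and 1.76 on its other probe sets. Pdgfrb, the receptor for the main mitogen of stellate cells, had 361.3 in FLS livers against 178.5 in DS livers (fold change 2.02), and a second probe set gave at least 1.22-fold. Pdgfra, the related receptor, had 247.5 in FLS livers against 146.9 in DS livers, a fold change of 1.68, while its other probe sets lay below the medians.

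Acta2, the smooth muscle actin that defines activated stellate cells, had 485.8 in FLS livers against 528.7 in DS livers, a ratio of 0.919. Tagln, another contractile gene, had 246.6 in FLS livers against 248.0 in DS livers, and the intermediate filament gene Des had 194.9 in FLS livers against 197.5 in DS livers. Scaling to Actb, whose own ratio was 0.867, shifts each log2 ratio and the median of all genes upward by 0.21, so that the ratios of Acta2, Tagln, Des, Timp1 and Tgfb1 turn to slightly above 1.

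Genes that mark stellate cells in normal liver were mixed. Reln, the gene of reelin, had 2153 in FLS livers against 1561 in DS livers, a ratio of 1.38, and Hand2, a transcription factor of the stellate lineage, had 196.8 in FLS livers against 133.1 in DS livers, a ratio of 1.48. Ngfr and Gfap had ratios of 0.885 and 0.882. Rgs5, a gene of pericytes, had 1376 in FLS livers against 1305 in DS livers on its brightest probe set, but its other probe sets gave 2.03, 0.703 and, with a DS signal below the array median, at least 1.07-fold. Over the 11 markers the median log2 ratio was 0.08, with 6 ratios above 1 and 5 below.

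**Figure D3:**
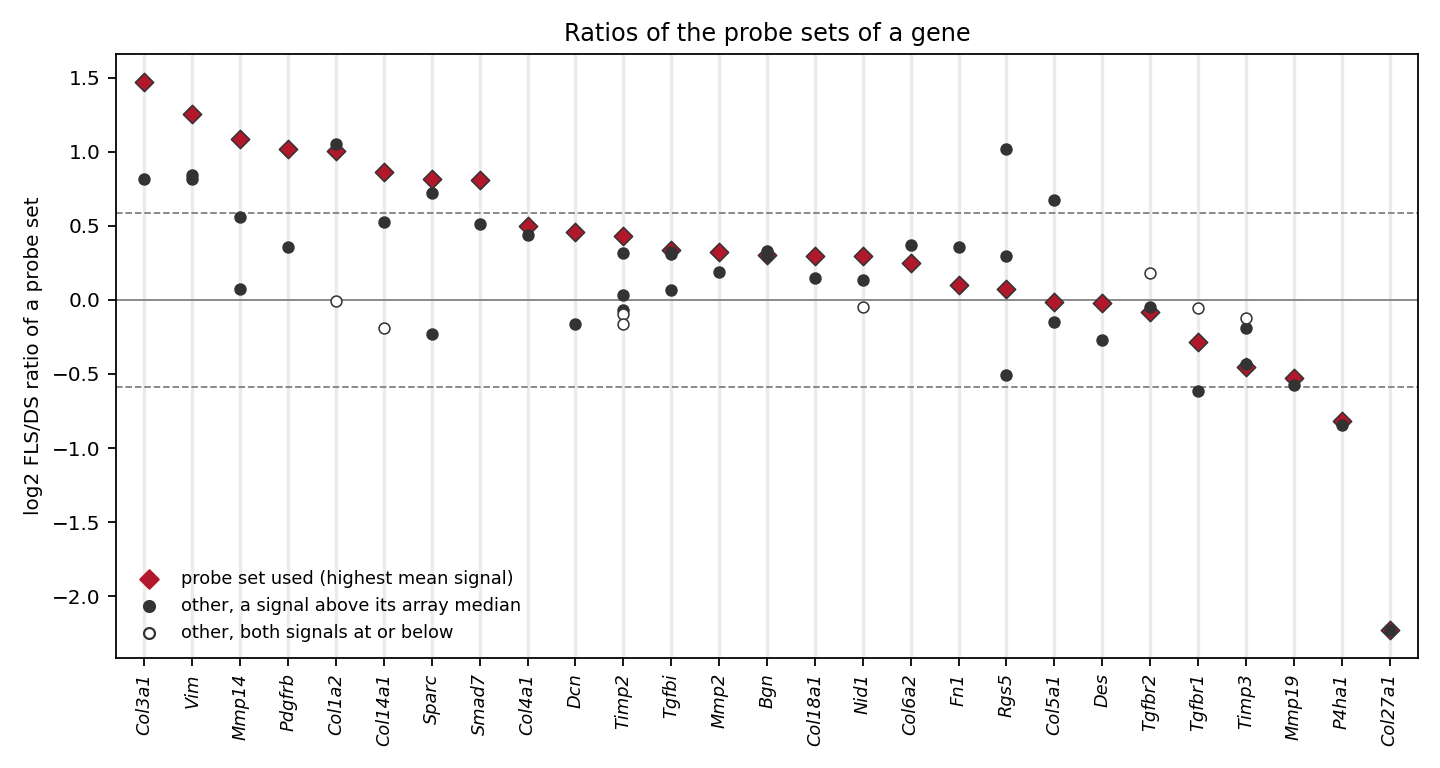
Log2 FLS/DS ratio of every probe set of the 27 genes with more than 1 probe set above an array median, ordered by the value used for the gene (diamonds); filled circles are other probe sets with a signal above its array median and open circles those with neither, and dashed lines mark 1.5-fold. The paired probe sets of Col27a1 and of P4ha1 coincide, whereas those of Rgs5 range from 0.703-fold to 2.03-fold.

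Ratios were on the same side of 1 over all probe sets above background in 22 of 27 genes with several such probe sets. The exceptions were Col5a1, Dcn, Rgs5, Sparc and Timp2. When each gene was given the median over all its probe sets, dim ones included, 9 of the 55 genes were at least 1.5-fold higher, and 2.12% of all genes were. Col14a1, Loxl1, Mmp14 and Pdgfra then lay below 1.5-fold, with log2 ratios of 0.52, 0.27, 0.56 and 0.07. Smad7 lay below it, at 0.51, when its brightest probe set, of the _x_at kind that can bind related transcripts, was left out.

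Among the ligands and receptors that act on stellate cells, Pdgfc, a ligand of Pdgfra, had 346.7 in FLS livers against 171.6 in DS livers (fold change 2.02), and 1.26 on a further probe set. Pdgfa, another ligand, had a ratio of 1.42 and Pdgfb of 0.845. The hedgehog receptor Ptch1 had 712.4 in FLS livers against 1296 in DS livers, a ratio of 0.550, with 0.879 on a second probe set above the medians. These were 1 higher and 1 lower of 16 genes, with a median log2 ratio of -0.04. Of 19 receptors for matrix, 2 were at least 1.5-fold higher and none lower, with a median log2 ratio of 0.05. Sdc4, a cell surface proteoglycan, had 5067.6 in FLS livers against 2860 in DS livers on its brightest probe set (fold change 1.77), but 1673 in FLS livers against 4517 in DS livers on the second, a ratio of 0.370, so that its direction is not settled. Itga8, an integrin chain of stellate cells, lay at the limit itself, with 213.1 in FLS livers against 142.1 in DS livers (fold change 1.5). Its second probe set had both signals below the medians. The dystroglycan gene Dag1 had a ratio of 1.41.

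Markers of other cells that express these genes were also read, and their part in the differences was not tested. Quiescent stellate cell markers had a median log2 ratio of 0.11 over 13 genes and a summed signal of 7547 in FLS livers against 7887 in DS livers. The order of these sums turned on Steap4, without which they were 4833 in FLS livers against 4132 in DS livers. Ednrb, the endothelin receptor, was the 1 of 13 at least 1.5-fold higher (615.0 in FLS livers against 302.0 in DS livers), although a second probe set above the medians gave 0.960. Steap4 had a ratio of 0.723, and Lrat, the enzyme of vitamin A storage, had 247.7 in FLS livers against 281.4 in DS livers. Markers of smooth muscle, which also expresses Acta2 and Tagln, had none of 10 at 1.5-fold. For 6 of these 10, however, neither signal exceeded the array median. Their summed signal was 2403 in FLS livers against 2495 in DS livers, and without Mylk 1081 in FLS livers against 1127 in DS livers. Of 15 markers of portal fibroblasts and mesothelium, 9 had neither signal above the array median and 2 were at least 1.5-fold higher. These were Gas6 (1277 in FLS livers against 727.1 in DS livers, but 0.971 on a second probe set) and, at the limit itself, Dpt (199.8 in FLS livers against 133.1 in DS livers). The sum was 3262 in FLS livers against 2618 in DS livers, and without Gas6 it was 1985 in FLS livers against 1891 in DS livers.

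Endothelial markers, whose cells also make type IV collagen and Sparc, had a sum of 9164 in FLS livers against 8557 in DS livers. Their median log2 ratio was 0.05, and 6 of the 14 ratios lay below 1. Tek was the 1 of 14 at 1.5-fold (407.0 in FLS livers against 222.4 in DS livers). Stab2 had a ratio of 1.34, and without it the sums were 7824 in FLS livers against 7561 in DS livers. Markers of macrophages, the main source of Mmp12, went both ways, with 2 of 14 at least 1.5-fold higher and 3 lower, and a sum of 7294 in FLS livers against 7916 in DS livers. Without Cd5l the sums were 5810 in FLS livers against 5656 in DS livers, the other order. Gpnmb, a gene of lipid-laden macrophages, had 349.5 in FLS livers against 124.9 in DS livers. That DS signal lay just below the array median, which bounds the difference as at least 2.79-fold, and a second probe set lay below both medians. Cd9 had 858.2 in FLS livers against 560.2 in DS livers, while Trem2 had a ratio of 0.957. The resident Kupffer cell genes Vsig4 (407.7 in FLS livers against 735.6 in DS livers), Cd5l (1484 in FLS livers against 2260 in DS livers) and Timd4 (115.4 in FLS livers, below the array median, against 202.5 in DS livers) were lower. Of 8 cholangiocyte markers, 5 had neither signal above the array median. Sox9 was at least 1.5-fold higher, at 365.2 in FLS livers against 140.2 in DS livers. The sum was 2005 in FLS livers against 1669 in DS livers, and without Sox9 it was 1640 in FLS livers against 1528 in DS livers. Krt7 and Krt19, which define these cells, had signals at or below the array medians in both pools. Neutrophil markers summed to 1296 in FLS livers against 1433 in DS livers. For 4 of these 9 neither signal exceeded the array median, and none of the other 5 was beyond 1.5-fold on signals above background. S100a9 had 91.5 in FLS livers, below the array median, against 145.3 in DS livers, so that its ratio is bounded only as at most 0.828.

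**Figure D4:**
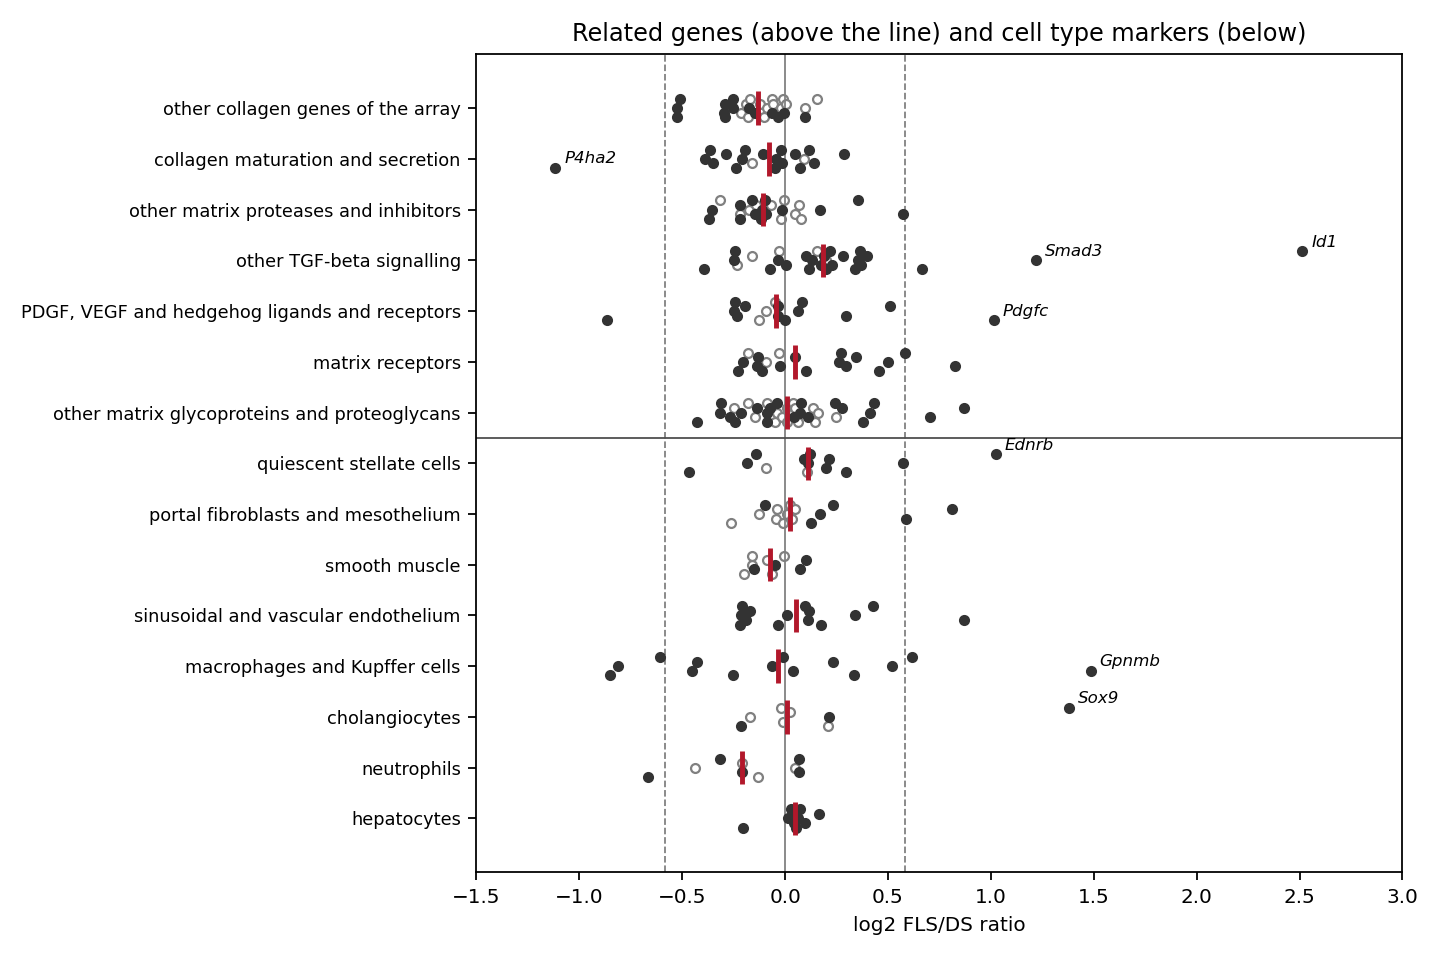
Log2 FLS/DS ratio of genes related to the matrix (above the horizontal line) and of cell type markers (below it), with filled points where at least 1 signal exceeded its array median, open points where neither did, and a red bar at the median of each list; dashed lines mark 1.5-fold. The list medians run from -0.21 for neutrophil markers to 0.18 for further TGF-beta signalling genes, and single genes such as Id1, Gpnmb, Sox9 and P4ha2 lie outside them.

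The 15 genes whose measured ratio was at least 1.5-fold higher or lower stayed beyond that limit, in the same direction, under quantile normalization, median centring, loess and division by Actb. For Mmp12 and Loxl1 this holds of the measured ratio only, as their bounds lie under 1.5-fold. The scaled fold change lay between 2.70 and 3.20 for Col3a1, 1.95 and 2.31 for Col1a2, 2.34 and 2.75 for Vim, and 0.209 and 0.246 for Col27a1.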

How the data were processed

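Liver messenger RNA was measured on 2 arrays, each hybridized with the pooled RNA of 3 mice of a strain. The deposited files hold linear signal intensities. The authors summarized the perfect-match probes of each of 45101 probe sets by a model-based expression index (MBEI) and normalized the arrays. Among tools, affy is named in the submitters' processing notes with no version. How the arrays were scaled is not given in the sources used.

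FLS/DS ratios were computed from these signals without offset, scaling or signal limit. A single gene symbol was given to 34958 probe sets by the platform annotation, several to 932 and none to 9211, and 34754 of the single symbols were brought up to date by Entrez number in a table of RefSeq genes (GRCm38.p6). For each gene the brightest probe set, by mean signal, was used. Having 1 array per strain limits the precision, and no p-value is given. Named are genes beyond 1.5-fold with a signal above its array median, key genes of each group, genes whose probe sets disagree, and up to 3 genes with the largest difference of each related list, while other genes, named for their role, were picked after their values were seen. The genes, lists and limits were chosen with earlier results of these data known.

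The alternatives were quantile normalization, median centring, loess (fraction 0.4), division by Actb, an offset of 50, the median over all probe sets of each gene, exclusion of _x_at and _s_at probe sets, a signal above 200 or above 500 in at least 1 pool and, chosen after seeing the data, a mean signal above 200. A log2 value was taken to move beyond 0.22, the pooled SD between probe sets of a gene over 1424 genes, and a count beyond 1.5 times. The calculation was tested on simulated data. The software was Python 3.11.15 with pandas 2.3.3, numpy 2.4.6, matplotlib 3.10.9 and statsmodels 0.14.6.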

Additional observations from a re-analysis of the deposited data

How the results depend on the processing

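No paired analysis was possible because each strain had 1 array. The median log2 ratio over the 55 genes lay between 0.14 and 0.45 in all alternatives. The number at least 1.5-fold higher, 13 as reported, was 21 after division by Actb, a setting in which 7.61% of all genes passed. Of the 20 genes with a signal above 500 in at least 1 pool, 5 were higher and 1 lower. Among all genes of the array with such a signal, 6.11% were higher and 4.49% lower. The number at least 2-fold higher, 7 as reported, was 4 with an offset of 50, 4 with the median over probe sets and 3 with a signal above 500. Of all genes in these settings, 0.797%, 0.720% and 2.29% passed that limit. The signal limits leave fewer genes. With a signal above 200 in at least 1 pool or a mean signal above 200, the median of enzymes and inhibitors was -0.45, and with a signal above 500 it was 0.43, while fibrillar collagens had 1.00 and other collagens 0.86. The other medians and counts moved by less than the limits above, and no gene beyond 1.5-fold changed direction. The log2 ratio of Vim was 0.84 and that of Smad7 0.51 without _x_at and _s_at probe sets. With the median over probe sets, 7 of 23 named genes moved, all toward 0, with Pdgfra at 0.07 and Loxl1 at 0.27, and with an offset of 50 Mmp12 was at 1.01. Dim probe sets of a gene enter that median, and the cause of each move was not tested. How far mice of a strain differ is unknown.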
